A study of Homo sapiens with 8 samples.

Results

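The comparison asked, gene by gene, whether depletion of PHF13 changed the transcriptional response of PANC-1 cells to TGFβ. PANC-1 is an established human cell line from a ductal carcinoma of the pancreas that keeps an intact SMAD pathway. All cells were transfected with siRNA, and RNA was taken from 4 groups of 2 libraries each: siControl, siPHF13, siControl_TGFb and siPHF13_TGFb. The last 2 groups were grown with 10 ng/ml of TGFβ for 48 h after transfection. All 8 of 8 libraries and all 13307 genes of the count table entered the comparison. For each gene the response was the log2 difference between the treated and the untreated group, on log2(normalized count + 1), and the interaction was the response in siPHF13 cells minus the response in siControl cells. A negative interaction therefore marks a rise that was smaller, or a fall that was deeper, in depleted cells. A difference was called when limma gave an adjusted p under 0.05 and the log2 value exceeded 0.58 in size. The labels name one siRNA treatment for PHF13, so an effect of the depletion and any other effect of that siRNA cannot be told apart. Nothing in the labels ties the 2 libraries of a group to separate cultures, so p-values measure the spread between these libraries.

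TGFβ binds a pair of receptor kinases that phosphorylate SMAD2 and SMAD3, which join SMAD4 and switch genes on or off together with partner factors. In carcinoma cells the programme includes feedback inhibitors, matrix and adhesion genes, transcription factors of the epithelial-mesenchymal transition (EMT) and a brake on the cell cycle. PHF13 is a PHD-finger protein that binds methylated tails of histone H3 at active and poised promoters.

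Libraries held 39196214 to 46700806 reads on genes, and the median gene averaging 100 or more normalized counts differed between the 2 libraries of a group by 0.0593 (siControl) to 0.126 (siPHF13_TGFb) on the log2 scale. PHF13 itself had 1804 and 1662 normalized counts in siControl, 1586 and 1709 in siControl_TGFb, 524 and 558 in siPHF13 and 513 and 529 in siPHF13_TGFb. Its level was lower in all 4 depleted libraries (log2 -1.68 without and -1.66 with TGFβ), and its interaction was 0.019 (95% interval -0.26 to 0.30). The duct keratins KRT7, KRT8, KRT18 and KRT19 were all measured, from 379 normalized counts for the lowest value of KRT7 to 120045 for the highest of KRT8. Of the markers fixed for other cells, PECAM1, CDH5, PTPRC, CD3E, PDGFRA, DCN and LUM had no row in the table, and KDR and PDGFRB stayed at or below 57.1 normalized counts. CD68, which is not limited to leukocytes, ranged from 10524 to 13400.2 in the depleted libraries and from 6137 to 7666 in the others. Its part in the results was not tested.

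TGFβ raised 435 genes (3.27% of those tested) and lowered 202 (1.52%) in siControl cells by limma, 4.79% together, and raised 150 (1.13%) and lowered 29 (0.218%) in siPHF13 cells, 1.35% together. The interaction itself was called for 41 genes, 0.308% of those tested, of which 33 were below 0 and 8 above. For all other genes a call was not made with 2 libraries a group, which does not show that their responses were alike. Among the 435 genes that rose in siControl cells, 28 rose significantly less in siPHF13 cells, 113 were raised in both without a called interaction, and 294 were called in siControl cells with no called interaction and no call in siPHF13 cells. Of the 202 genes that fell, 7 fell significantly less, 15 fell in both and 180 were undecided in the same way. A further 5 genes had a called interaction and a fall called in siPHF13 cells but not in siControl cells. Besides these, 28 genes, 19 rises and 9 falls, were called in siPHF13 cells and not in siControl cells without a called interaction, so that a difference was not shown for them. No gene was called in opposite directions in the 2 backgrounds, and no called interaction belonged to a rise called in siPHF13 cells only or to a response that was stronger there, by limma, edgeR or DESeq2. With an unadjusted interaction p under 0.05 instead, limma gave 0 reversed, 5 new rises and 3 stronger responses. The median interaction over all genes was -0.0071, a value that the size factors hold near 0, so each interaction is relative to the typical gene.

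**Figure D1:**
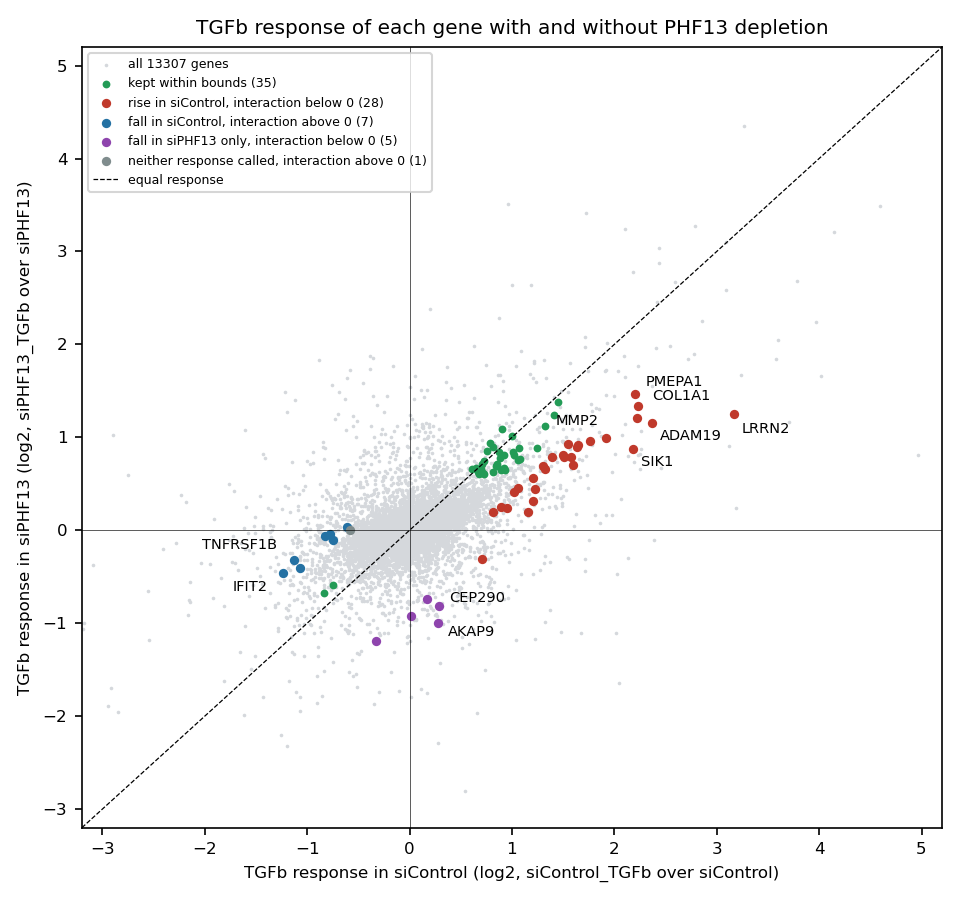
Each point is a gene, plotted by its TGFβ response in siControl cells (x axis, log2) and in siPHF13 cells (y axis, log2), and the dashed line marks equal responses. The 28 smaller rises lie below the line on the right, the 7 smaller falls above it on the left, the 5 falls with a called interaction that were called in siPHF13 cells only below the horizontal axis, and the 35 responses kept within bounds along the line.

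The largest group, 28 genes, held matrix and adhesion genes, SMAD targets and signalling genes whose rise was blunted. Their median response was 1.50 in siControl and 0.79 in siPHF13 cells on the log2 scale. In 18 of the 28 the remaining rise was still called in siPHF13 cells. The same held for 30.1% of all genes called higher in siControl cells, and 1.13% of all genes were raised in siPHF13 cells. The members reached this smaller rise in 2 ways. In 15 the level before TGFβ was already called higher in siPHF13 than in siControl cells (7.95% of all genes were), while the level after TGFβ was not called lower. In 11 the level after TGFβ was called lower in depleted cells (11.7% of all genes were), without a level called higher before it. MMP2 and ZNF185 met neither description. Before TGFβ, 2 of the 28 were called lower in depleted cells (10.4% of all genes were), and after it 5 were called higher (8.81%). Since the interaction is the difference between these 2 depletion effects, the counts describe how each member came to its value and are not separate evidence for it.

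SIK1, a salt-inducible kinase known as a TGFβ target, was the clearest case of a raised starting level. It had 1018 and 959 normalized counts in siControl, 4527 and 4454 in siControl_TGFb, 4398 and 4089 in siPHF13 and 7863 and 7663 in siPHF13_TGFb. Untreated depleted cells thus stood close to the level that control cells reached only after TGFβ. The rise was 4.54-fold in siControl and 1.83-fold in siPHF13 cells, with an interaction of -1.31 ± 0.095 (SE, n = 2 per group, limma adjusted p = 2.85e-05). In absolute terms the increments were nearly alike, 3502 normalized counts in siControl and 3519.8 in siPHF13 cells, so the blunting of SIK1 was a statement about fold change. COL5A1, a chain of collagen V, showed the same arithmetic, with increments of 877 and 886 normalized counts from group means that differed 1.48 on the log2 scale before TGFβ. In the other 26 blunted rises the increment was smaller in depleted cells as well.

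ADAM19, a membrane-bound metalloprotease that sheds growth factors, had 1619 and 1565 normalized counts in siControl, 8412 and 8019 in siControl_TGFb, 4634 and 4912 in siPHF13 and 11376 and 9879 in siPHF13_TGFb. It rose in both backgrounds and ended somewhat higher in the depleted libraries, but its fold fell from 5.16 to 2.22 (interaction -1.21 ± 0.10, limma adjusted p = 0.000117). ULK1, the kinase that starts autophagy, went from 4988 and 4792 to 15357 and 14238 normalized counts in control cells and from 11039.6 and 9839 to 18372 and 15646 in depleted cells. The depletion effect on ULK1 was 1.09 without and 0.20 with TGFβ, and the interaction was -0.89 ± 0.11 (limma adjusted p = 0.00274). EPHB2, a receptor for ephrins in axon guidance and cell repulsion, started higher in depleted cells (6752 and 7361 against 4496 and 4098) and ended at overlapping levels (12908 and 11567 against 12959.7 and 12685), with an interaction of -0.79 ± 0.10 (limma adjusted p = 0.00298).

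LRRN2, a leucine-rich repeat membrane protein, had the largest negative value, -1.92 (95% interval -2.68 to -1.15), and the widest interval of the 41 genes. Its counts were low: 37 and 24.3 in siControl, 265 and 290.1 in siControl_TGFb, 96.5 and 73 in siPHF13 and 226 and 179 in siPHF13_TGFb. It was the only one of the 15 that started higher and then ended with both depleted libraries below both control libraries (36.1% of all genes did). DESeq2 gave LRRN2 no adjusted p. LEPR, the leptin receptor, rose from 189.7 and 171 to 391 and 413 in control cells, whereas depleted cells held 574 and 546 before and 609 and 674 after TGFβ (response 0.19, adjusted p = 0.559 by limma). THBD, the endothelial anticoagulant receptor thrombomodulin, behaved alike, with 413 and 365 and 934 and 859.9 in control and 1498 and 1289 and 1862 and 1617 in depleted cells. Both genes were called higher in depleted cells without TGFβ (7.95% of all genes were) and with it (8.81%).

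DNM1, a dynamin that pinches off endocytic vesicles, was the only blunted rise whose mean moved the other way in depleted cells. Control libraries went from 294 and 275 to 491 and 439 normalized counts and depleted libraries from 526 and 604 to 499 and 412. The change in depleted cells (-0.31) missed the threshold (limma adjusted p = 0.307), so it was not a called reversal.

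The secreted and matrix-associated members of this subgroup were abundant. TGFBI, an extracellular protein named for its induction by TGFβ, had 24941 and 25062 normalized counts in siControl, 53955 and 50338 in siControl_TGFb, 52834 and 57796 in siPHF13 and 77472 and 73619 in siPHF13_TGFb. Untreated depleted cells therefore matched treated control cells. CTGF, the matricellular growth factor, ran from 6103 and 5707 to 15112 and 14352 in control and from 12602 and 11144 to 19353 and 18141 in depleted cells. LTBP2, an extracellular protein of the fibrillin family, PODXL, an anti-adhesive sialomucin, ADAMTS15, a secreted protease, and BMF, a pro-apoptotic protein, completed the 15, with interactions of -0.68, -0.65, -0.64 and -0.80. PODXL and ADAMTS15 were also called higher in depleted cells after TGFβ (0.69 and 0.73), as were SIK1, LEPR and THBD.

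The second subgroup reached a lower end point. COL1A1, the main chain of collagen I, had 3345 and 3433 normalized counts in siControl, 16414 and 15334 in siControl_TGFb, 1922 and 1887 in siPHF13 and 4909 and 4691 in siPHF13_TGFb. It was lower in depleted cells before TGFβ (-0.83) and lower still after it (-1.72). Its rise was 4.68-fold in control and 2.52-fold in depleted cells (interaction -0.89 ± 0.089, SE, n = 2 per group, limma adjusted p = 0.000358), and its increment dropped from 12485 to 2896 normalized counts.

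PMEPA1, a SMAD target whose product sequesters receptor-activated SMADs, started close to equal and ended apart. It had 3834 and 3745 normalized counts in siControl, 18006 and 16900.2 in siControl_TGFb, 3251 and 3279.9 in siPHF13 and 9164 and 8862 in siPHF13_TGFb (interaction -0.74 ± 0.085, limma adjusted p = 0.00118). SLC26A2, the sulfate transporter that feeds proteoglycan sulfation, had 10078 and 10079.6 and 10488 and 9719 without TGFβ, overlapping between the backgrounds. With TGFβ it reached 21768 and 25556 in control but 13511 and 14001 in depleted cells, so the backgrounds separated only after treatment.

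The integrin subunits ITGA5, of the fibronectin receptor, and ITGAV, whose dimers release latent TGFβ from the matrix, were the most abundant members of this subgroup. ITGA5 went from 35066 and 34918 to 100454 and 99104 normalized counts in control and from 28780.2 and 30649.9 to 53078 and 49443 in depleted cells (interaction -0.73 ± 0.087, limma adjusted p = 0.0015). ITGAV went from 38114 and 39034 to 74932 and 81615 and from 32682 and 33079.5 to 44069 and 43761 (interaction -0.60 ± 0.086, limma adjusted p = 0.00631). Both were called lower in depleted cells after TGFβ (-0.96 and -0.83), as were 11.7% of all genes.

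SPOCK1, a matrix proteoglycan, went from 2539 and 2810.2 to 8319 and 8271 normalized counts in control and from 2417 and 2662 to 4983 and 4498 in depleted cells. ANGPTL4, a secreted inhibitor of lipoprotein lipase, went from 7003 and 6373 to 22023 and 19715 and from 5383 and 4734 to 9064 and 10051. Both kept a called rise in depleted cells (0.90 and 0.92 on the log2 scale). PDGFB, a platelet-derived growth factor chain, and PGM2L1, an enzyme of hexose phosphate metabolism, had smaller interactions, -0.61 and -0.60. CBFB, the partner subunit of RUNX factors, rose by 0.81 in control cells and by 0.20 in depleted cells, where the rise was not called (limma adjusted p = 0.117).

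CD69, a membrane lectin best known from activated lymphocytes, stood apart by its size of loss. It had 1358 and 1295 normalized counts in siControl and 2523 and 2609 in siControl_TGFb, against 227 and 218 in siPHF13 and 261 and 266 in siPHF13_TGFb. The depletion effect was -2.57 without and -3.28 with TGFβ, and the response fell from 0.95 to 0.24 on the log2 scale. Of the leukocyte markers, PTPRC and CD3E had no row in the table. CD68, which is not limited to leukocytes, ranged from 6137 to 13400.2 normalized counts and was higher in the depleted libraries.

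MMP2, the gelatinase that degrades basement membrane collagen, crossed over. It had 5366 and 5576 normalized counts in siControl, 6666 and 7826 in siPHF13, 21622 and 19682 in siControl_TGFb and 15443 and 13440.3 in siPHF13_TGFb. Neither depletion effect passed the size threshold on its own (0.40 and -0.52), while the interaction was -0.92 ± 0.12 (limma adjusted p = 0.00298). ZNF185, an actin-associated LIM protein, showed the same crossing on a smaller scale, with depletion effects of 0.37 and -0.24.

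**Figure D2:**
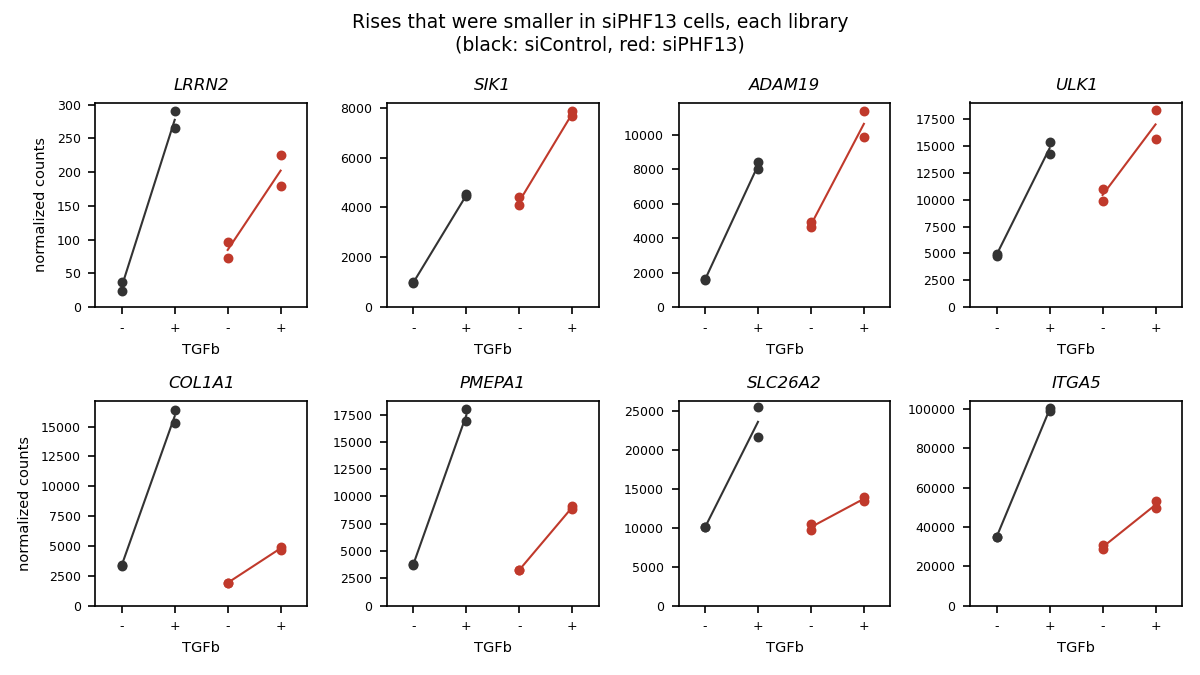
Normalized counts of 8 blunted rises in each library (points) with group means joined by a line, control cells in black and depleted cells in red, without (−) and with (+) TGFβ, all y axes from 0. In the upper row the red line starts high, as for SIK1 at 4398 and 4089, and in the lower row it ends low, as for COL1A1 at 4909 and 4691.

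**Figure D3:**
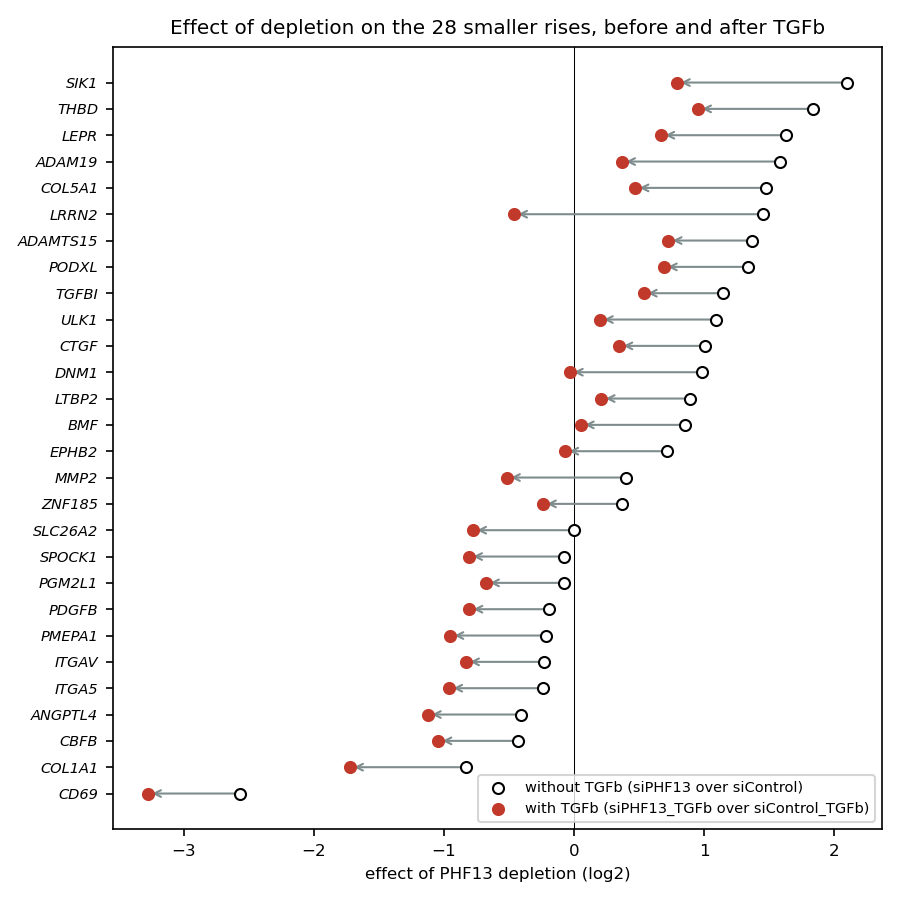
Effect of depletion (log2, x axis) on each of the 28 blunted rises without TGFβ (open points) and with TGFβ (red points), the arrow length being the interaction. Genes from SIK1 (2.10) down to EPHB2 (0.72) start above 0.58, and genes from SLC26A2 down to CD69 end below -0.58.

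Promoter sequence was compared for the called genes. RefSeq windows (GRCh38.p14), of which the 250 bases before the start site were read, were matched for 23 of the 33 genes with a negative and 6 of the 8 with a positive interaction, and COL1A1, MMP2, THBD, SPOCK1, CD69, PODXL, ADAMTS15, CBFB, PDGFB, GOLGA4, IFIT2 and ITGB4 were not matched. The SMAD motif CAGAC, on either strand, was present for 15 of the 23 (65.2%) and 5 of the 6 (83.3%), against 44.1% of the 10745 matched genes of the expression table and 42.8% of all 27305 genes with windows. The AP1 motif TGANTCA was in none of the matched windows (6.20% of the genes in the table), the E-box CACCTG of SNAI and ZEB factors in 6 and 1 (20.9%), and the TEAD motif GGAATG in 5 and 1 (13.1%). Genes with several windows counted once, if any window matched. CAGAC is short and frequent, and a match is a description of the letters, not a bound site. The windows of PMEPA1 and SLC26A2, whose end level was lower, and of LRRN2 and ULK1, whose start level was higher, are shown 5′ to 3′ on the gene's strand with CAGAC or its reverse complement in capitals. They lie at chr20:57690687-57690936 (minus), chr5:149960508-149960757 (plus), chr1:204685739-204685988 (minus) and chr12:131894372-131894621 (plus). For PMEPA1 the window that held the motif was taken from 4.
PMEPA1: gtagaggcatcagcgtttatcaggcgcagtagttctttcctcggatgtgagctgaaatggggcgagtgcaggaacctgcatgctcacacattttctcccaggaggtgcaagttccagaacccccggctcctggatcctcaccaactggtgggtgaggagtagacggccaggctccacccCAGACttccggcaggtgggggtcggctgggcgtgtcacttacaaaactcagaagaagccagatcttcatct
SLC26A2: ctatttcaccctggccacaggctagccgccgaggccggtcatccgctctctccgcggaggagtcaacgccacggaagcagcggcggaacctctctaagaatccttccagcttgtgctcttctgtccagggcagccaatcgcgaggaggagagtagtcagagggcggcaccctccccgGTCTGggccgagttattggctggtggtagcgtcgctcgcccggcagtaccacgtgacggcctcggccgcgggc
LRRN2: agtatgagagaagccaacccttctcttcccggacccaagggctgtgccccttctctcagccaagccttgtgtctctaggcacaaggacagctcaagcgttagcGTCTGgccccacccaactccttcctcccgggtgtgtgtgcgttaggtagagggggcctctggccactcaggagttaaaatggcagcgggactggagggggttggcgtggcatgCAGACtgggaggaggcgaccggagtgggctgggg
ULK1: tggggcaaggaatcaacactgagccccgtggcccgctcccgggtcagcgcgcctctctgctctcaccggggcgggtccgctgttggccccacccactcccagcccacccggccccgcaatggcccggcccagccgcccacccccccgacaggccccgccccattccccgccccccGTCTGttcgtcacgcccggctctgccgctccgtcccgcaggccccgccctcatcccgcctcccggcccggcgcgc
The matches began 71 (PMEPA1), 73 (SLC26A2), 147 and 34 (LRRN2) and 75 (ULK1) bases before the start site. All matched genes that ended lower held the motif: SLC26A2, PMEPA1, ITGA5, ANGPTL4, PGM2L1 and ITGAV. Among the matched genes that started higher, LRRN2, DNM1, LEPR, ULK1, BMF and CTGF held it. SIK1, ADAM19, COL5A1, EPHB2, LTBP2 and TGFBI, which also started higher, held none in these windows. A difference between the subgroups was not tested.

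TGFβ also lowered genes, and 7 of these falls were blunted in depleted cells (0.0601% of all genes had a called interaction above 0). TNFRSF1B, a receptor for tumour necrosis factor, had 8506 and 8778 normalized counts in siControl, 3976 and 3916 in siControl_TGFb, 3737 and 4536 in siPHF13 and 3533 and 3085 in siPHF13_TGFb. Depletion alone brought it about as low as TGFβ did in control cells, and little further fall followed (response -1.13 against -0.32, interaction 0.81 ± 0.12, limma adjusted p = 0.00985).

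IFIT2 and IFIT3, interferon-induced proteins that restrict viral RNA translation, followed the same course. IFIT2 had 4612 and 5152 normalized counts in siControl, 2098 and 2034 in siControl_TGFb, 1881 and 2381 in siPHF13 and 1518 and 1572 in siPHF13_TGFb (interaction 0.78 ± 0.14, limma adjusted p = 0.0255). IFIT3 had 2995 and 3464, 1782 and 1853, 1386 and 1769 and 1487 and 1503 in the same order (interaction 0.76 ± 0.15, limma adjusted p = 0.046). Their neighbour IFIT1 had a like value, 0.78, and missed the threshold (limma adjusted p = 0.0568). Of 25 interferon-stimulated genes in the table, 23 (92.0%) had an interaction above 0, with a median of 0.35, against 48.3% and -0.0071 over all genes. IFIT2 and IFIT3 were the 2 called by limma, edgeR called 2 and DESeq2 3 of the list. Their median TGFβ response was -0.40 in siControl and -0.0024 in siPHF13 cells. OASL, MX1 and GBP2, further interferon-induced antiviral genes, had interactions of 0.89, 0.61 and 1.07, none called.

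FANCD2, ORC1 and NEK2, whose products act in DNA repair, replication and mitosis, were blunted falls with a different course. FANCD2, of the Fanconi anaemia crosslink repair pathway, had 1344 and 1322 normalized counts in siControl, 733 and 829 in siControl_TGFb, 968 and 1147 in siPHF13 and 1007 and 1044 in siPHF13_TGFb. ORC1, of the origin recognition complex, had 1185 and 1142, 747 and 779, 1084 and 982 and 1041 and 1071 in that order, and NEK2, a centrosome kinase, had 2104 and 2029, 1244 and 1219, 1648 and 1751 and 1525 and 1639. Their depletion effects were -0.34, -0.17 and -0.28 without TGFβ and 0.40, 0.47 and 0.36 with it, none of them called. The fall in control cells had next to no counterpart: the responses in siPHF13 cells were -0.039, 0.034 and -0.10. The limma interactions were 0.73 (adjusted p = 0.046), 0.64 (adjusted p = 0.0485) and 0.64 (adjusted p = 0.0208), each with n = 2 per group.

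UBE2T, the ubiquitin-conjugating enzyme of the same Fanconi pathway, behaved alike. It went from 2023 and 2085 to 1398 and 1355 normalized counts in control cells and from 1888 and 1978 to 1859 and 2028 in depleted cells. Its fall in control cells (-0.58) lay at the size threshold and was not called, and its interaction of 0.58 was the smallest of the 41. In the list of 30 cytostatic and cell cycle genes, 24 (80.0%) had an interaction above 0 (48.3% of all genes did), with a median of 0.28. None was called by limma, edgeR or DESeq2, while 15 had an unadjusted limma p under 0.05 (1259 of all 13307 genes did). MCM2, a subunit of the replicative helicase, passed the adjusted p alone (0.43, adjusted p = 0.0485). The median TGFβ response of the 30 was -0.41 in siControl and -0.075 in siPHF13 cells, while the cyclin-dependent kinase inhibitor CDKN1A rose in both (1.06 and 0.76).

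ITGB4, the hemidesmosome integrin subunit, was the only blunted fall that started above control. It had 3454 and 3469.8 normalized counts in siControl, 1715 and 1587 in siControl_TGFb, 4764 and 5496 in siPHF13 and 4168 and 3584 in siPHF13_TGFb, so that treated depleted cells stayed above untreated control cells. The keratin KRT19 was similar in form, with 32426 and 34318, 18358 and 18991, 38578 and 40977 and 30351 and 32788, but its interaction of 0.50 was under the size threshold (limma adjusted p = 0.0255).

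The 5 genes with a called interaction and a fall called in depleted cells only were AKAP9, CEP290, ANKRD12, GOLGA4 and CENPE. AKAP9, a scaffold of the centrosome and Golgi, had 3542 and 3096 normalized counts in siControl, 4111 and 3917 in siControl_TGFb, 1906 and 2103 in siPHF13 and 974 and 1027 in siPHF13_TGFb (interaction -1.28 ± 0.12, limma adjusted p = 0.000203). CEP290, a protein of the ciliary transition zone, had 1527 and 1396, 1803 and 1766, 969.8 and 995 and 552 and 564 (interaction -1.10 ± 0.12, limma adjusted p = 0.000819). In both, the control means were slightly higher after TGFβ, and the depleted libraries fell from a level that was already below control.

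GOLGA4, a golgin that tethers vesicles, had 8076 and 7596 normalized counts in siControl, 8875 and 8727 in siControl_TGFb, 4339.7 and 4689.6 in siPHF13 and 2651 and 2758 in siPHF13_TGFb. ANKRD12, a nuclear ankyrin-repeat protein, had 3203 and 2995, 3093 and 3178, 2079 and 2289 and 1198 and 1101. CENPE, the kinetochore motor, had 2828 and 2467, 2187 and 2038, 1616 and 1649 and 648 and 792, and its mean fell in control cells too (-0.32, not called). The interactions of the 3 were -0.91, -0.94 and -0.86, and in all 5 genes both depleted libraries were below both control libraries without TGFβ (38.8% of all genes were) and with it (36.1%).

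These 5 transcripts were long and poor in GC. Their longest annotated transcripts ran from 7908 to 13915 bases with 33.6% to 38.9% GC. Over all 302 genes at least as long and at most as GC-rich, the median interaction was -0.085 and 70.5% were below 0, against -0.0056 and 51.3% over the other 12825 genes with a length. Of the 302, 8 were called, the others being LEPR, PGM2L1 and ITGAV, and of the 12825 others 33 were. The length and GC limits are those of the called genes themselves, which the 302 include, so these counts are a description. When each library was corrected for GC content and transcript length, an alternative chosen after seeing the data, all 5 were still called, with interactions between −1.18 (AKAP9) and -0.78 (CENPE). LEPR also stayed called after this correction, while PGM2L1 and ITGAV were no longer called. GOLGB1 and TRIP11, a further golgin and a Golgi-associated coiled-coil protein, passed the adjusted p alone (-0.56 and -0.54) and were 11199 and 9996 bases long. They were chosen after their values were seen.

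**Figure D4:**
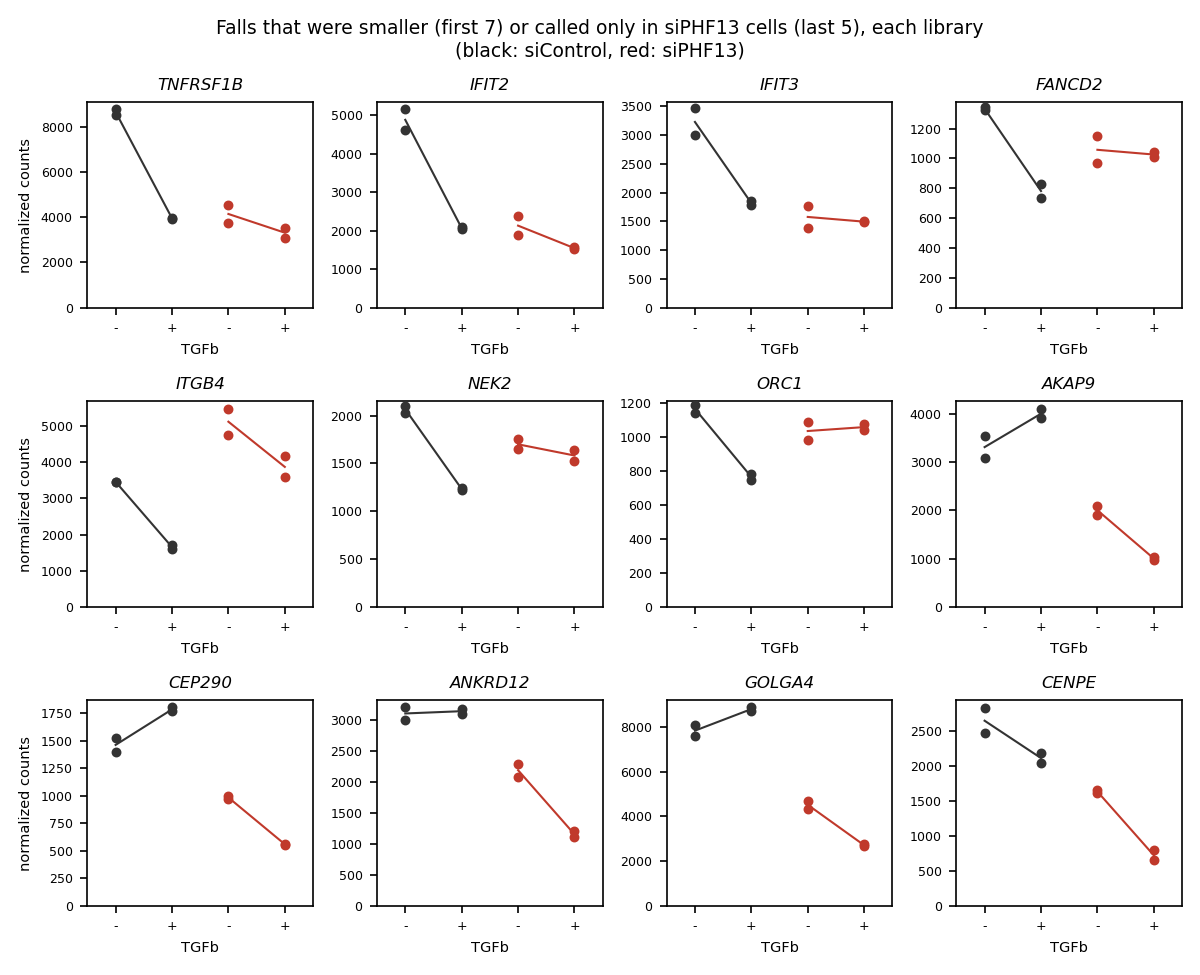
Normalized counts in each library (points, y axes from 0) with group means joined by lines, control cells in black and depleted cells in red, without (−) and with (+) TGFβ. The first 7 genes fall in control but less in depleted cells, as TNFRSF1B from 8506 and 8778 to 3976 and 3916 in control cells, and the last 5 have a fall called in depleted cells only, as AKAP9 from 1906 and 2103 to 974 and 1027.

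Responses that were kept were defined by a called change of the same direction in both backgrounds and no called interaction, which held for 113 rises and 15 falls. For most of them the interval of the interaction was too wide to exclude a blunting of the called size. The whole 95% interval lay within 0.58 of 0 for 35 genes, 33 rises and 2 falls. Among these rises the interaction was still below 0 in 24 of 33.

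The 5 rises kept within bounds with the largest mean of both responses were MFAP2, a microfibril protein, PLEK2, an actin-regulating pleckstrin, PDGFA, a platelet-derived growth factor chain, SKIL, the SMAD co-repressor SnoN, and COL4A2, a basement membrane collagen chain. MFAP2 had 592 and 634 normalized counts in siControl, 1806 and 1551 in siControl_TGFb, 404 and 419 in siPHF13 and 1123 and 1026 in siPHF13_TGFb, with responses of 1.45 and 1.38. PLEK2, PDGFA and SKIL likewise had both depleted libraries below both control libraries without TGFβ (38.8% of all genes did) and with it (36.1%). Their interactions were -0.17, -0.20 and -0.36. COL4A2 was the closest to equal, with 433 and 421, 827 and 889, 409.8 and 397 and 852 and 782, and an interaction of 0.012 (95% interval -0.31 to 0.33). The sign of the value for MFAP2, COL4A2 and CABLES1 changed when single libraries were left out, as values this near 0 can.

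The feedback inhibitor SMAD7 rose from 968 and 1046 to 2038 and 2218 normalized counts in control and from 890.2 and 916 to 1507 and 1578 in depleted cells (interaction -0.31, 95% interval -0.56 to -0.05). JUNB, an AP1 subunit and direct SMAD target, had responses of 1.01 and 0.84, and SOX9, a progenitor transcription factor of the duct, had 0.90 and 1.09, a nominally larger rise from a lower level. SMAD7, SKIL and JUNB stand beside PMEPA1 as immediate targets of the pathway, and PMEPA1 alone of these 4 had a called interaction. The 95% interval of SKIL (-0.56 to -0.16) lay below 0 like that of SMAD7, while that of JUNB (-0.42 to 0.09) contained 0. Whether PMEPA1 differed from these genes was not tested. The 2 falls kept within bounds were CABLES1, a regulator of cyclin-dependent kinases (-0.83 and -0.68), and PLIN2, the lipid droplet coat protein (-0.75 and -0.59). PLIN2 had 1988 and 1949 normalized counts in siControl and 3919 and 3521 in siPHF13, so it kept its fold from a higher level.

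Of the EMT genes that were named for description whatever their values, MMP2 and COL1A1 (-0.89) had a called interaction. SNAI1, the transcription factor Snail, had 502 and 565 normalized counts in siControl, 1768 and 1267 in siControl_TGFb, 155 and 181 in siPHF13 and 402 and 351 in siPHF13_TGFb. It was far lower in depleted cells, but TGFβ raised it in both, by 1.49 and 1.16, and the interaction of -0.33 had a 95% interval of -0.80 to 0.15. MMP9, a gelatinase, also rose in both backgrounds (1.23 and 1.59).

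CDH1, the epithelial cadherin, had 403 and 459.5 normalized counts in siControl, 118 and 121 in siControl_TGFb, 106 and 233 in siPHF13 and 78.8 and 154 in siPHF13_TGFb. Its fall was called in control cells (-1.84) and not in depleted cells (-0.51), and the interaction of 1.33 came with a 95% interval of 0.33 to 2.33 and an adjusted p of 0.327 by limma. In depleted cells the 2 libraries of each condition differed by more than the condition means did. The neuronal cadherin CDH2 responded by 0.54 and 0.55, just under the size threshold in both, and its interaction was 0.017 (95% interval -0.21 to 0.25).

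VIM, the intermediate filament vimentin, had an interaction of -0.14, ZEB1, an E-box repressor, -0.16, and ITGA2, a collagen receptor subunit, -0.28, none of them called. FN1, fibronectin, lay between 49.7 and 181 normalized counts and SNAI2, the factor Slug, between 10.8 and 55.1, and their 95% intervals of -1.31 to 0.44 and -1.84 to 1.55 left both undecided. EPCAM, an epithelial adhesion molecule, and the protocadherin PCDHB8 and the matrix protein PAPLN were not called in either background, with interactions of 0.16, -0.57 and -0.11. PCDHB8 belongs to a cluster of near-identical genes, so its reads may be shared with its neighbours.

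UBE2T lay just inside the size threshold at 0.58. In all, 14 genes passed the adjusted p alone, among them BMPR2, a receptor of bone morphogenetic proteins (-0.57), FURIN, the convertase that matures TGFβ (-0.53), COL7A1, the anchoring fibril collagen (-0.51), TPM1, a tropomyosin (-0.47), and PLAU, the urokinase (0.52). Their intervals did not contain 0, but the sizes were under the threshold.

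By list, the TGFβ feedback and direct targets had a median interaction of -0.20 over 36 genes, 22.2% of them above 0 (48.3% of all genes were), with PMEPA1, TGFBI, LTBP2 and CTGF called lower (0.248% of all genes were). In this list 13 genes rose in siControl (3.27% of all genes did) and 7 in siPHF13 cells (1.13%). None of the receptors and SMAD transducers had a called interaction. The receptors TGFBR1 (-0.18) and TGFBR2 (-0.16) lay near the median of the list, SMAD2 was at -0.12, SMAD3 at 0.016 and SMAD4 at 0.057. The mesenchymal and matrix list had a median of -0.19 over 51 genes, 31.4% of them above 0, with COL1A1, COL5A1, SPOCK1, ITGA5, ITGAV, MMP2 and ADAM19 called lower. Of these 51, 20 rose in siControl and 13 in siPHF13 cells, against the same shares of all genes, and 0.248% of all genes were called lower. Among the members with an interaction above 0, SPARC (0.076), TIMP1 (0.085) and TNC (0.093) were not called in either background.

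The EMT transcription factors had a median of -0.15 over 15 genes and the epithelial genes one of 0.10 over 33. None was called in either list by limma, edgeR or DESeq2, and 2 and 7 genes had an unadjusted limma p under 0.05. Over all 13307 genes, 1259 had such an unadjusted p. Contractile genes (median -0.091 over 28), AP1 family (-0.016 over 20), cholesterol synthesis (-0.040 over 24), the integrated stress response (-0.077 over 22) and inflammatory genes (0.12 over 23) also had none called by limma or edgeR, with 6, 2, 0, 3 and 4 genes at an unadjusted limma p under 0.05. DESeq2 called 1 inflammatory gene and none in the other 4 lists. Among 28 protocadherins the median was -0.33 and none was called by limma, edgeR or DESeq2 (6 at an unadjusted limma p under 0.05). In siControl cells 3 of the 28 rose (3.27% of all genes did). In the axon guidance list EPHB2 was the single limma call among 56 genes (median -0.067), against 0.308% of all genes called, and DESeq2 called 2.

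The study's own list of 90 poised genes activated by TGFβ was drawn up on these libraries, so its direction is not independent evidence. Of the 90, 69 rose in siControl (3.27% of all genes did) and 30 in siPHF13 cells (1.13%). The median response was 1.20 and 0.64, and 78 had an interaction below 0 (median -0.40), as had 6875 of all 13307 genes. By limma LEPR, COL5A1 and LRRN2 of the 90 had a called interaction below 0 (0.248% of all genes did), and 27 were kept in both backgrounds (128 of all 13307 genes were). DESeq2 called 4 of the 90 and gave no adjusted p for LRRN2.

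**Figure D5:**
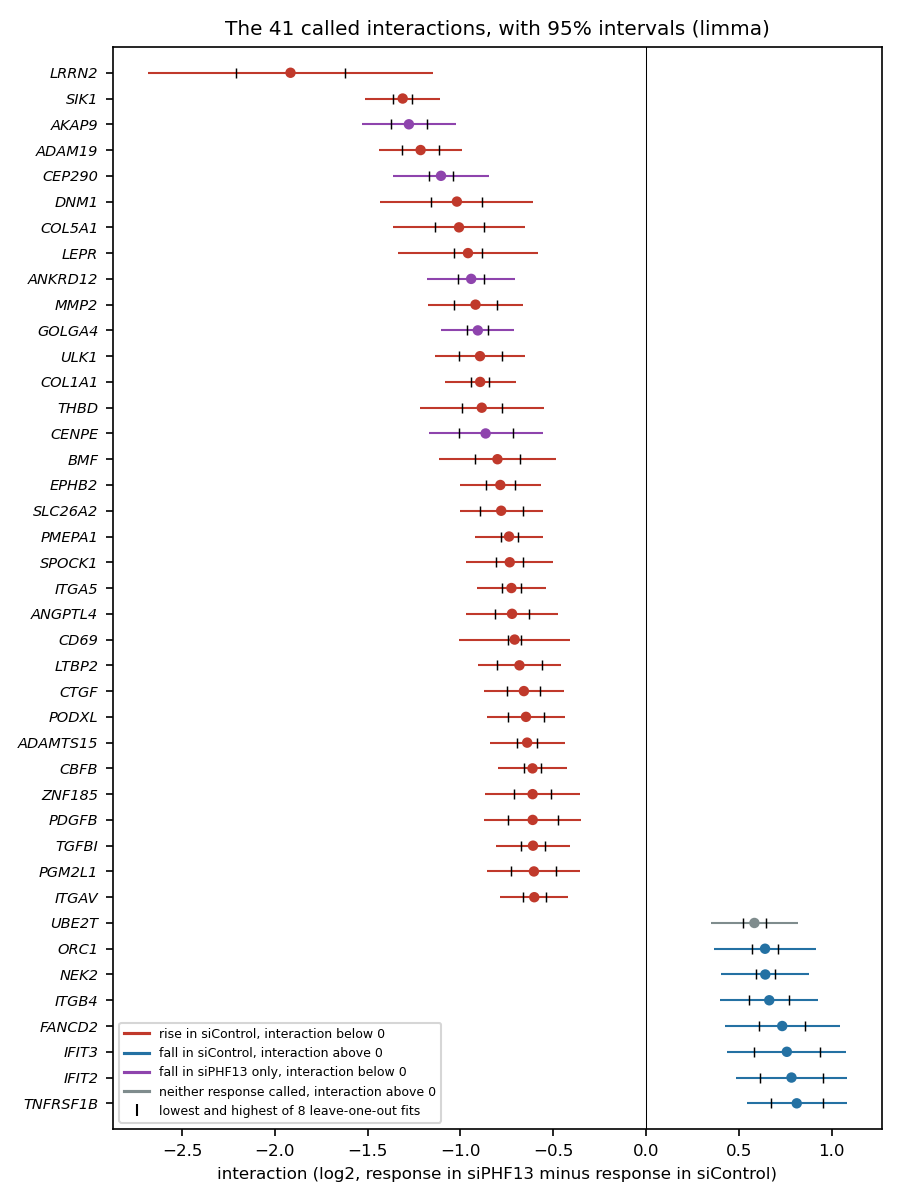
Interaction (log2, x axis) of each of the 41 called genes, with its 95% interval from limma (line) and the lowest and highest value when 1 of the 8 libraries was left out (black ticks). All ticks lie on the same side of 0 as the point, from LRRN2 at -1.92 to TNFRSF1B at 0.81.

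All 41 interactions kept their sign when any single library was left out, but their calls depended on which library was left out. The 11 genes called in all 8 such fits were SIK1, ADAM19, MMP2, ULK1, COL1A1, PMEPA1 and ITGA5 among the blunted rises and AKAP9, CEP290, ANKRD12 and GOLGA4 among the new falls. None of the 8 positive interactions was among them. Without siPHF13_TGFb replicate 1 the count rose to 111 genes, 75 below and 36 above 0, and leaving out any other library gave 12 to 39 genes.

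On hg19, as given by the GENCODE annotation lifted to GRCh37, the steadiest blunted rises lie apart from each other: SIK1 (chromosome 21, 44834363 to 44847011, minus strand), ADAM19 (chromosome 5, 156822542 to 157002783, minus strand), MMP2 (chromosome 16, 55423612 to 55540603, plus strand), ULK1 (chromosome 12, 132379167 to 132407695, plus strand), COL1A1 (chromosome 17, 48261462 to 48278993, minus strand), PMEPA1 (chromosome 20, 56223448 to 56286592, minus strand) and ITGA5 (chromosome 12, 54789045 to 54813050, minus strand). IFIT2 (chromosome 10, 91043451 to 91069028, plus strand) and IFIT3 (chromosome 10, 91087064 to 91137230, plus strand) are neighbours in one cluster.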

How the data were processed

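Poly(A) RNA of PANC-1 cells was sequenced in 8 libraries, 2 per group, with groups taken from the labels. Per the submitters' processing notes, reads were trimmed with Trim Galore 0.4.1, aligned to hg19 with STAR 2.7.0 and counted with HTSeq 0.12.4. The authors divided the counts by DESeq2 size factors (version not given in the sources used here), and the deposited signal is a normalized count per gene. All values came out as whole multiples of the value of 1 read (100% within 1e-06 of a read), so edgeR and DESeq2 could be run on recovered reads. The deposited fold changes and p-values of the authors' own comparisons were not used. The table holds 13307 genes, and all reached 10 normalized counts in at least 2 libraries, the minimum set here. The pseudocount was 1, and fold changes are on the log2(value + 1) scale, which understates low genes.

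limma 3.58.1 with an intensity trend (R 4.3.3) was fitted over all 8 libraries with the 4 groups as terms, without a replicate block, and p-values were adjusted by Benjamini-Hochberg over all genes. Intervals are 95% intervals from that fit. Alternatives comprised a pseudocount of 5, the table with no minimum, a minimum mean of 100, TMM factors, a replicate block, no threshold on the log2 value, edgeR 4.0.16, DESeq2 1.42.0, leaving out each library and, chosen after seeing the data, edgeR and DESeq2 for the classes and single genes, a correction for transcript length and GC content (natural splines, 5 degrees of freedom, 98.7% of genes with a value) and a crossed replicate block. Scripts were tested on simulated data. Same-numbered libraries did not deviate together in every pair of groups (correlations -0.25 to 0.27 over 11201 genes), so the numbers were not taken as pairs.

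Named genes were, per class, those averaging 100 or more normalized counts with the same sign in all 8 leave-one-out fits and the largest interactions (8 for a blunted class, 6 for others), 5 kept rises and 5 kept falls where so many existed, up to 6 called members per list, and a set of EMT genes. One gene that this rule names is not reported here. The remaining called genes are named so that all 41 are accounted for. Members, lists and tests were chosen with earlier results of these data known. Lengths and positions came from GENCODE lifted to GRCh37, promoters from RefSeq. Read counts are without molecular identifiers.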

Additional observations from a re-analysis of the deposited data

Results flagged for a closer look

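The 41 genes with a called interaction are those whose TGFβ response differed between siControl and siPHF13 cells by a test of the difference itself (limma, n = 2 per group). Among the blunted rises the interactions on the log2 scale were -1.92 for LRRN2, -1.31 for SIK1, -1.21 for ADAM19, -1.02 for DNM1, -1.01 for COL5A1, -0.96 for LEPR, -0.92 for MMP2, -0.89 for ULK1, -0.89 for COL1A1 and -0.89 for THBD. Smaller in size were BMF (-0.80), EPHB2 (-0.79), SLC26A2 (-0.78), PMEPA1 (-0.74), SPOCK1 (-0.73), ITGA5 (-0.73), ANGPTL4 (-0.72) and CD69 (-0.71). The remaining rises were LTBP2 (-0.68), CTGF (-0.66), PODXL (-0.65), ADAMTS15 (-0.64), CBFB (-0.61), ZNF185 (-0.61), PDGFB (-0.61), TGFBI (-0.61), PGM2L1 (-0.60) and ITGAV (-0.60).

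The interactions of the falls called in siPHF13 cells only were, for the 5 genes where the interaction was called, -1.28 (AKAP9), -1.10 (CEP290), -0.94 (ANKRD12), -0.91 (GOLGA4) and -0.86 (CENPE). The interactions above 0 were 0.81 for TNFRSF1B, 0.78 for IFIT2, 0.76 for IFIT3, 0.73 for FANCD2, 0.66 for ITGB4, 0.64 for NEK2, 0.64 for ORC1 and 0.58 for UBE2T.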

How the results depend on the processing

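The 41 called interactions kept their sign under every alternative run, and with all 8 libraries 38 to 41 of them stayed called in each (39 with a minimum mean of 100, without IFIT3 and PDGFB, 40 in DESeq2, which gave no adjusted p for LRRN2, and 38 after the GC and length correction, without UBE2T, PGM2L1 and ITGAV). DESeq2 called 61 genes in all, 15 of them above 0, with 12 blunted falls. Without a threshold on the log2 value there were 12 blunted falls, 3 new falls and 332 kept responses. The replicate block gave 39 called interactions (32 below and 7 above 0) and ended the calls of ORC1, CD69 and PDGFB. Since the numbers of siPHF13 and siPHF13_TGFb ran against each other (-0.25), the block with the siPHF13 numbers crossed was added after seeing the data and gave 70 interactions (50 below, 20 above 0), 44 blunted rises and 16 blunted falls.

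Leaving out 1 library gave 12 (siControl replicate 2) to 111 (siPHF13_TGFb replicate 1) interactions, with 12 to 75 below 0 and 0 to 36 above, 8 to 55 blunted rises, 0 to 21 blunted falls, 4 to 9 new falls and 107 to 156 kept responses. The counts were 19 without siControl replicate 1, 22 and 28 without siPHF13 replicates 1 and 2, 16 and 21 without siControl_TGFb replicates 1 and 2, and 39 without siPHF13_TGFb replicate 2. In these fits a lone library was assumed to vary like the other groups, and the cause of the spread was not tested. Values that changed sign in some of these fits ran from -0.18 to 0.042 for MFAP2, -0.050 to 0.074 for COL4A2, -0.067 to 0.38 for CABLES1, -0.040 to 0.078 for PHF13, -0.0081 to 0.34 for EPCAM, -0.042 to 0.076 for CDH2, -0.88 to 0.0035 for FN1, -0.88 to 0.59 for SNAI2 and -0.25 to 0.039 for PAPLN, none called.

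Each group held 2 libraries, and the median 95% interval reached 0.27 on either side for genes averaging 100 or more normalized counts. An interaction without a call is therefore not shown to be absent. For the 35 responses kept within bounds, the 95% interval excluded interactions beyond the size threshold of 0.58, but not every smaller one.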
